A study of Mus musculus with 12 samples.

Results

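AP-1 and immediate early gene mRNAs were measured in C57MG cells 24 h after exposure to R-spondin2 (Rspo2), Wnt3a or both proteins. The genes were *Fos*, *Fosb*, *Fosl1*, *Fosl2*, *Jun*, *Junb*, *Jund*, *Egr1*, *Egr2* and *Ier3*, which are 10 of the 27962 gene names on the array. They were picked by name: 9 were found under their symbol and *Jund* under its older symbol *Jund1*, matched by RefSeq accession. They had 12 probes in all, with 2 each for *Fosl2* and *Junb* and 1 for each of the other genes.

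C57MG cells are a line of mouse mammary epithelial origin. The cells were moved from medium with serum and insulin into plain DMEM, which all 4 groups shared, and received BSA as vehicle control, 100 ng/ml recombinant human Rspo2, 100 ng/ml recombinant mouse Wnt3a, or both proteins at these doses. Each group had 3 monolayers, which the labels call biological replicates, and each RNA went on its own single-color array, giving 12 arrays. All values come from 1 cell line at 1 time.

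AP-1 is a dimer of a Jun protein with a Fos protein or with another Jun protein, and it binds the promoters and enhancers of many growth, invasion and stress genes. Several of its subunit genes and the *Egr* genes are immediate early genes, which growth factors switch on within minutes, without new protein synthesis. In many cases this runs through MAP kinases that act on serum response factor and its ternary complex partners at promoter CArG boxes. The mRNAs then fall again, so a sample taken a day after stimulation reads the level that persists and not the first wave. Egr1 and Egr2 are zinc finger transcription factors that bind GC-rich sites, and the Nab proteins are their corepressors.

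Few sites of the kinds searched for were found in the promoter windows of the genes. RefSeq windows (GRCm38.p6, 250 bases before to 50 after each annotated start) were searched on both strands for AP-1 sites (TGANTCA), cAMP response elements (TGACGTCA), TCF/LEF sites (CTTTGAT), Egr sites (GCGNGGGCG) and the CArG box. Windows were found for 8 of the 10 genes, not for *Egr1* and *Fosl1*. Only 4 stretches held a match, shown here as 30 bases each, 5′ to 3′ on the strand of the gene, with the match in capitals. They are shown because *Egr2* carries the clearest change of the 10 genes and *Fosl2* the clearest among the AP-1 subunits.
Egr2, CArG box, chr10:67537484-67537513, plus strand: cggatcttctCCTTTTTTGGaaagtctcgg
Egr2, CArG box, chr10:67537787-67537816, plus strand: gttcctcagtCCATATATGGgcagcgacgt
Fosl2, Egr site, chr5:32136383-32136412, plus strand: ccggctgcgcGCGGGGGCGgaagggcgcgc
Fosb, Egr site, chr7:19310076-19310105, minus strand: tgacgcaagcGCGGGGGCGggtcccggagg
*Egr2* was the only one of the 8 genes with a CArG box in these windows, at 2 places among its 5 annotated starts, and 1.63% of all 32851 windows hold one. An Egr site was found in 5.55% of all windows. None of the windows of the 8 genes held the AP-1 letters (7.81% of all windows), the cAMP response element (1.79%) or the TCF/LEF letters (3.73%). These are matches of letters within the window, and binding was not measured.

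Signals are given as relative signal, the background-subtracted intensity of a probe divided by the 75th percentile of its array, and differences are given as log2. Probes entered the test when the scanner software flagged them as well above background on every array of some group, which left 22751 probes. Here "rose" and "fell" mean an adjusted p under 0.05 in limma over all those probes. All 12 probes were tested. Of the 10 genes, 9 were well above background on all 12 arrays, and no spot of any of them was saturated. *Fosb* was above background on 8 arrays and entered the test through the arrays with both proteins, which were the only group with all 3 above background.

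Between 51.3% and 64.2% of probes were well above background on each array. The 3 slides held 4 arrays each: slide 1 the BSA arrays and Rspo2 replicate 1, slide 2 the other Rspo2 arrays and Wnt3a replicates 1 and 2, and slide 3 Wnt3a replicate 3 and the arrays with both proteins. BSA shared no slide with Wnt3a or with the combination, so values from a fit with the slide as a block are given beside the results. In that fit slides 1 and 2 are joined only through the Rspo2 arrays, and slides 2 and 3 only through the Wnt3a arrays. Its values therefore rest on Rspo2 replicate 1, on Wnt3a replicate 3 or on both of these single arrays. Of the epithelial markers, *Krt14* and *Krt8* were above background on 12 arrays, *Krt5* on 10, *Krt18* on 3, *Epcam* on 2 and *Cdh1* on none. The mesenchymal markers *Vim*, *Fn1*, *Col1a1* and *Acta2* were above background on all 12. Of the markers of other cell types, *Cd68* and *Cdh5* were above background on 12 arrays, and *Ptprc* and *Pecam1* on 1 each. On the log2 scale of relative signal the mean of *Krt14* was 3.35 with BSA and 4.59 with both proteins, that of *Acta2* 6.96 and 7.75, and that of *Krt8* -3.51 and -4.66; their part in the results was not tested. In RNA from whole cultures, fewer cells with a transcript and less of it per cell cannot be told apart.

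Of the 10 genes, 5 passed in none of the 5 comparisons: *Fos*, *Fosb*, *Fosl1*, *Junb* and *Ier3*. With Rspo2 alone 1 of the 10 genes passed the test, *Egr1*, against 16.8% of all probes, and none changed by at least 2-fold (0.721% of all probes). With Wnt3a alone 3 passed, *Egr1* and *Jund* upward and *Egr2* downward, against 31.5% of all probes, and again none changed by at least 2-fold (2.52% of all probes). With both proteins 3 passed against BSA, *Fosl2* and *Jun* upward and *Egr2* downward, against 39.2%. The median size of change with both proteins over all 10 genes was 0.21 on the log2 scale, where the median over all probes was 0.27. Against Wnt3a alone, adding Rspo2 lowered *Egr1* and *Egr2* and raised none, which is 2 of 10 genes against 4.27% of all probes. The same 2 passed the test of the interaction, the change that Rspo2 makes in the presence of Wnt3a less the change it makes in its absence, where 8.9% of all probes passed. *Egr2* was the only member that changed by at least 2-fold, and it did so in the combination against BSA (5.08% of all probes), against Wnt3a (0.747%) and in the interaction (1.93%).

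**Figure D1:**
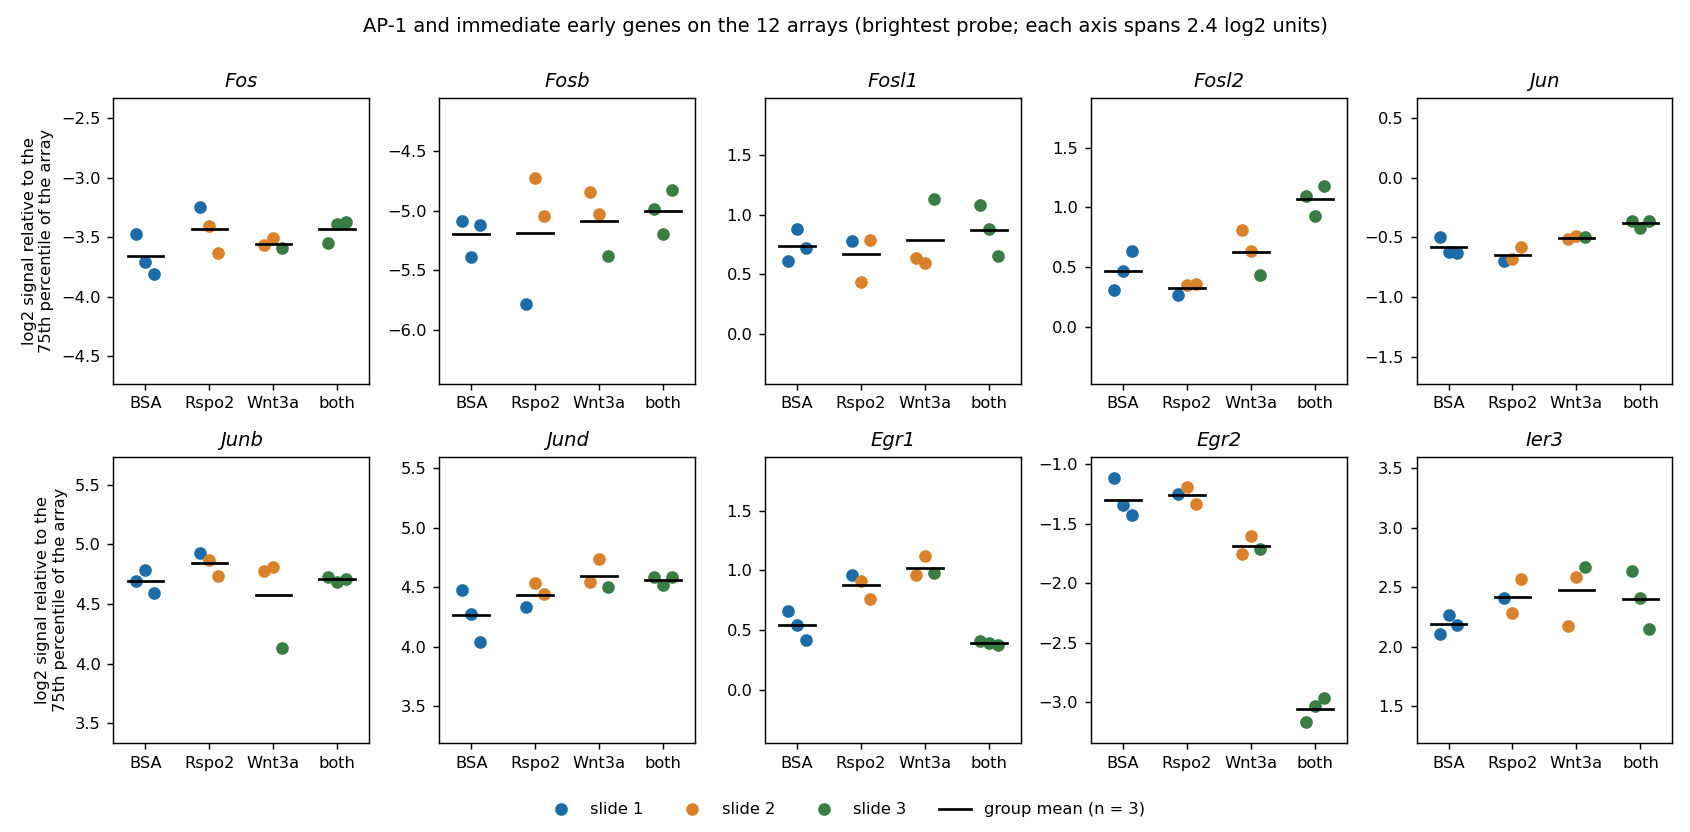
Log2 of relative signal (y axis) of the 10 genes in the 4 groups (x axis), with 1 point per array colored by slide and a line at the mean of 3 arrays. *Egr2* with both proteins lies between -3.17 and -2.96, below every other array, and the *Egr1* arrays with both proteins lie below those of all other groups.

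*Egr2* mRNA, which encodes a zinc finger factor known from hindbrain patterning and myelination, was reduced 3.37-fold by both proteins together and did not pass the test with Rspo2 alone. The gene lies at chr10:67534469-67542188 of GRCm38.p6. Its relative signal was 0.461, 0.394 and 0.371 on the BSA arrays and 0.421, 0.438 and 0.396 with Rspo2. It was 0.297, 0.329 and 0.306 with Wnt3a and 0.111, 0.123 and 0.129 with both proteins. The BSA and Rspo2 arrays overlapped, every Wnt3a array was below them, and every array with both proteins was below all of the others. Wnt3a alone gave a log2 difference from BSA of -0.39 ± 0.10 (SE, n = 3 per group, adjusted p = 0.0118 in limma). With both proteins the difference was -1.75 ± 0.10 (adjusted p = 6.58e-07), and from Wnt3a alone -1.36 ± 0.10 (adjusted p = 3.17e-05). Rspo2 in the absence of Wnt3a gave 0.04 ± 0.10, with a 95% confidence interval from -0.17 to 0.25. The interaction was -1.40 ± 0.14 (adjusted p = 0.000465 in limma), so the lowering by Rspo2 was seen in the presence of Wnt3a.

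Most of these calls were kept with the slide as a block: the fall with both proteins was -1.70 (adjusted p = 0.01 in limma), the difference from Wnt3a alone -1.34 (adjusted p = 0.00388) and the interaction -1.39 (adjusted p = 0.0255), while the fall with Wnt3a alone lost its call (-0.36, adjusted p = 0.449). On slide 3 itself the arrays with both proteins lay 1.34 below Wnt3a replicate 3, the only Wnt3a array there. The blocked difference from Wnt3a alone is this same value and no separate result. The blocked fall with both proteins and the blocked interaction rest on that array and on Rspo2 replicate 1. With normexp background correction, the fall with both proteins held (-1.39, adjusted p = 0.00549 in limma) and the calls against Wnt3a (-0.99, adjusted p = 0.166) and for the interaction (-1.19, adjusted p = 0.438) were lost. The fall with Wnt3a alone lost its call with normexp (-0.40, adjusted p = 0.39 in limma) and with quantile normalization (-0.29, adjusted p = 0.0606).

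The *Egr2* probe is printed 10 times on each array, as are those of *Jun* and *Fos*, so each array holds its own measure of technical spread. For *Egr2* the coefficient of variation over the spots of an array was between 2.8% and 9.1%. The brightest *Egr2* spot on the arrays with both proteins read 145.1 intensity units before scaling, and the dimmest on the Wnt3a arrays read 226.5. The dimmest spot on the BSA arrays read 370.2, above the brightest on the Wnt3a arrays at 284.4. No spot of the combination overlapped a spot of any other group.

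**Figure D2:**
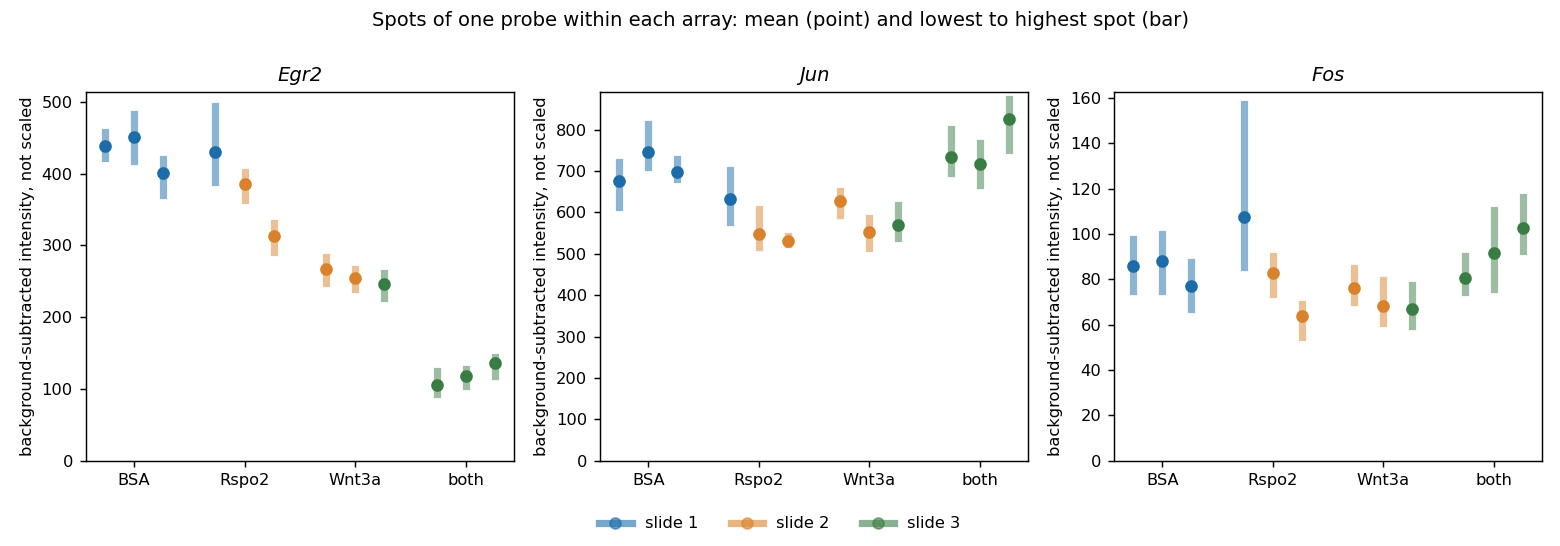
Background-subtracted intensity before scaling (y axis) of the repeated spots of *Egr2*, *Jun* and *Fos* on each of 3 arrays per group (x axis); points are means over spots and bars run from the lowest to the highest spot, colored by slide. The *Egr2* spots with both proteins end at 145.1, below the lowest spot of each other group, whereas the *Jun* and *Fos* bars with both proteins overlap those with BSA.

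*Egr1*, the best known of the Egr genes and a sensor of growth factor signals in many cells, rose with each protein alone and not with their combination. Its relative signal was 1.58, 1.46 and 1.334 on the BSA arrays and 1.94, 1.88 and 1.69 with Rspo2. With Wnt3a it was 1.95, 2.17 and 1.97, and with both proteins 1.328, 1.31 and 1.30. Each protein alone put all 3 arrays above BSA, and together they put all 3 just below the lowest BSA array. The rise was 0.34 ± 0.09 on the log2 scale with Rspo2 (SE, n = 3 per group, adjusted p = 0.0292 in limma) and 0.48 ± 0.09 with Wnt3a (adjusted p = 0.00289). With both proteins the difference from BSA was -0.15 ± 0.09 (adjusted p = 0.2, 95% confidence interval from -0.34 to 0.04). From Wnt3a alone it was -0.63 ± 0.09 (adjusted p = 0.00198 in limma), a fall of 1.55-fold, and the interaction was -0.97 ± 0.12 (adjusted p = 0.00195).

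The interaction of *Egr1* also passed with the slide as a block (-1.004, adjusted p = 0.0452 in limma). The single rises did not pass there, with 0.42 for Rspo2 (adjusted p = 0.202) and 0.63 for Wnt3a (adjusted p = 0.137), nor did the difference from Wnt3a (-0.58, adjusted p = 0.0659). With normexp background correction none of the *Egr1* calls was kept: the interaction was -0.94 (adjusted p = 0.168 in limma), the rise with Wnt3a 0.51 (adjusted p = 0.0862), that with Rspo2 0.28 (adjusted p = 0.614) and the difference from Wnt3a -0.66 (adjusted p = 0.0834). The rise with Rspo2 was also lost on leaving out any 1 of the 6 BSA and Rspo2 arrays, with values from 0.28 to 0.40 and adjusted p from 0.0527 to 0.0961 in limma.

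The third Egr gene with signal, *Egr3*, belongs to a wider list of immediate early genes and was the only one of that list with an interaction of at least 2-fold. Its intensity before scaling was 93.7, 82.3 and 82.3 with BSA, 96.8, 83.0 and 62.7 with Rspo2, 99.0, 79.7 and 61.6 with Wnt3a and 43.7, 46.7 and 61.5 with both proteins. On the log2 scale of relative signal it differed from BSA by 0.13 with Rspo2 and 0.23 with Wnt3a, neither past the test, and by -0.68 with both proteins (adjusted p = 0.00785 in limma). With the slide as a block the last of these was -0.07 (adjusted p = 0.95), and with normexp -0.61 (adjusted p = 0.55). The interaction was -1.04 ± 0.23 (adjusted p = 0.026), and it lost its call with the slide as a block (-0.81, adjusted p = 0.237) and with normexp (-1.06, adjusted p = 0.914). *Egr4* was not detected. Of the corepressors, *Nab1* fell by 0.30 on the log2 scale with both proteins (adjusted p = 0.0493 in limma) and *Nab2* passed in no comparison; neither passed with the slide as a block.

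**Figure D3:**
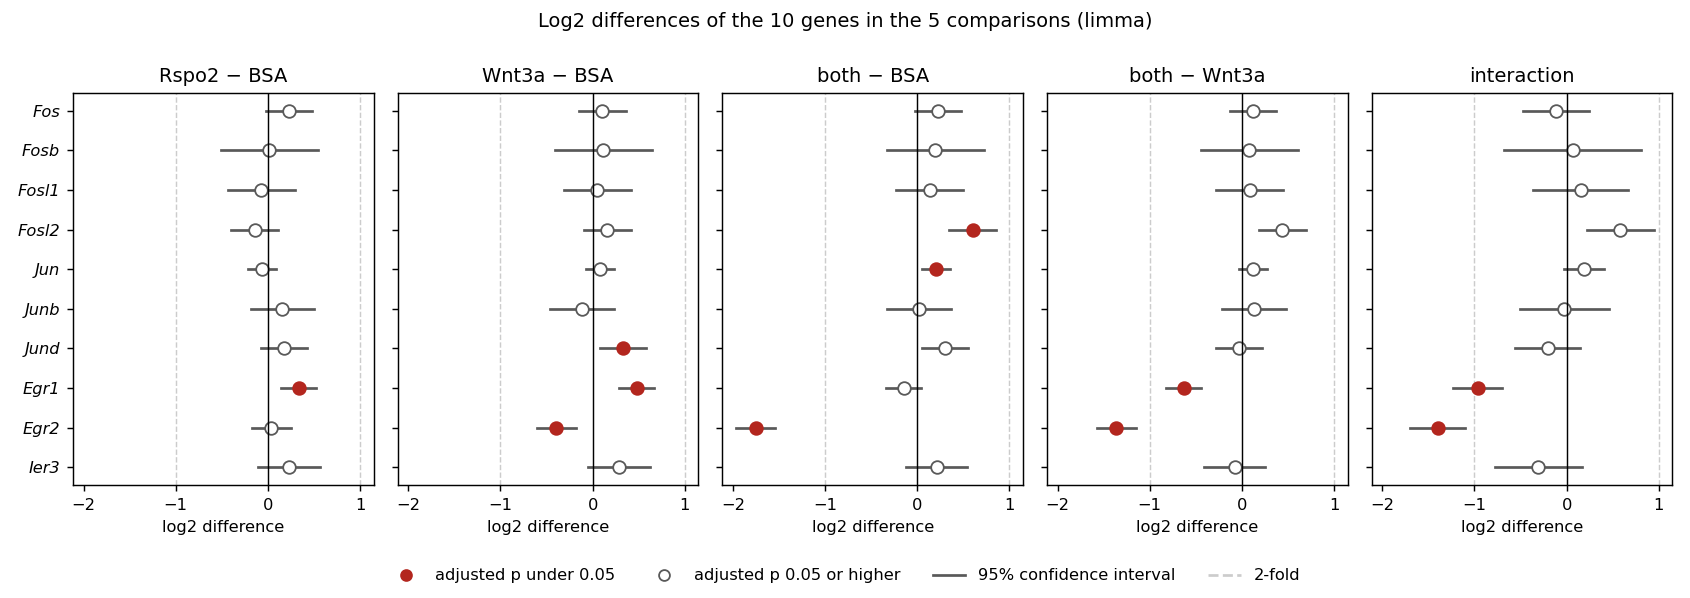
Log2 differences (x axis) of the 10 genes (y axis) in the 5 comparisons, with 95% confidence intervals from limma (n = 3 arrays per group); filled points have an adjusted p under 0.05 and dashed lines mark 2-fold. *Egr2* lies beyond the lower dashed line in the combination against BSA (-1.75), against Wnt3a (-1.36) and in the interaction (-1.40), and no other member passes either line.

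Among the Fos family, whose products need a Jun partner to bind DNA, *Fosl2* was the only gene that passed a test. *Fosl2* encodes Fra-2, which lacks the strong activation domain of c-Fos. The gene lies at chr5:32136472-32157840 of GRCm38.p6. Its brighter probe had a relative signal of 1.23, 1.38 and 1.55 with BSA, 1.2, 1.27 and 1.28 with Rspo2, 1.75, 1.55 and 1.35 with Wnt3a and 2.14, 1.91 and 2.26 with both proteins. Only the combination stood apart from every array of the other groups. The rise against BSA was 0.60 ± 0.12 on the log2 scale, or 1.52-fold (SE, n = 3 per group, adjusted p = 0.00233 in limma). The difference from Wnt3a (0.44 ± 0.12, adjusted p = 0.0625) and the interaction (0.58 ± 0.16, adjusted p = 0.0506) missed the threshold in limma. Without Wnt3a replicate 1 both passed, at 0.53 (adjusted p = 0.0485) and 0.67 (adjusted p = 0.04), each in that 1 alone of the 12 fits that left out an array. Over all alternatives the difference from Wnt3a passed in 2 of 27 and the interaction in 3 of 23. Neither passed with the slide as a block (adjusted p = 0.101 and 0.131 in limma) or with normexp (adjusted p = 0.904 and 0.803).

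The second *Fosl2* probe did not pass the test. It starts 4536 bases from the other on the coordinates in the array annotation, whose genome build is not given in the sources used here, and its signal was dimmer. Its relative signal was 0.168, 0.0767 and 0.0786 with BSA and 0.156, 0.104 and 0.0921 with both proteins, a difference of 0.19 ± 0.28 (adjusted p = 0.638 in limma). Replicate 1 was the high array on this probe both within BSA and within the group with both proteins. Without BSA replicate 1 the difference was 0.56 (adjusted p = 0.0497 in limma). That fit left out the high array on the BSA side only, so it gives no clear call for this probe. With the slide as a block the brighter probe differed by 0.80 and no longer passed (adjusted p = 0.154 in limma). Nor did it pass with normexp (0.57, adjusted p = 0.0675).

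*Fos*, *Fosb* and *Fosl1* passed in none of the 5 comparisons. The prototype *Fos* was dim but above background on all arrays: its relative signal was 0.0904, 0.0768 and 0.0714 with BSA, 0.105, 0.0942 and 0.0805 with Rspo2, 0.0846, 0.0881 and 0.0829 with Wnt3a and 0.0857, 0.0954 and 0.0968 with both proteins. All groups overlapped with BSA. The log2 difference with both proteins was 0.23 ± 0.11 (adjusted p = 0.144 in limma), with an interval from -0.03 to 0.48, whose upper bound is a 1.39-fold rise. Under quantile normalization the same difference was 0.44 (adjusted p = 0.00994) and that with Wnt3a 0.39 (adjusted p = 0.0281), so the call for *Fos* depends on the scaling. With normexp the differences were -0.18 with both proteins (adjusted p = 0.851 in limma) and -0.16 with Wnt3a (adjusted p = 0.892). Their direction thus depends on the background correction.

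*Fosb*, a close relative of *Fos*, was near the limit of detection, with relative signals from 0.0182 to 0.0379 over the 12 arrays. It was above background on 1 BSA array, 2 Rspo2 arrays, 2 Wnt3a arrays and 3 arrays with both proteins. *Fosl1*, which encodes Fra-1 and is known from invasive carcinoma cells, had relative signals from 1.35 to 2.19. Its group means ± SD were 1.67 ± 0.16 with BSA, 1.60 ± 0.21 with Rspo2, 1.75 ± 0.38 with Wnt3a and 1.84 ± 0.27 with both proteins (n = 3 each). The groups of *Fosl1* overlapped throughout, and the interval of its difference with both proteins ran from -0.23 to 0.50 on the log2 scale.

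Changes in the Jun family were small. *Jun*, which encodes the founding Jun protein and can form dimers with itself, lies at chr4:95049036-95052222 of GRCm38.p6. Its relative signal was 0.710, 0.652 and 0.645 with BSA, 0.618, 0.624 and 0.670 with Rspo2, 0.699, 0.713 and 0.707 with Wnt3a and 0.779, 0.747 and 0.779 with both proteins. The arrays with both proteins lay above all of the others, by a narrow margin. The rise against BSA was 0.20 ± 0.07 on the log2 scale, or 1.15-fold (SE, n = 3 per group, adjusted p = 0.0383 in limma). It was not past the threshold with the slide as a block (0.13, adjusted p = 0.761) or without BSA replicate 2, BSA replicate 3, Rspo2 replicate 2, Wnt3a replicate 1 or any of the arrays with both proteins (0.18 to 0.22, adjusted p from 0.0512 to 0.122). The call was also lost with normexp (0.14, adjusted p = 0.538 in limma).

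*Jund*, often the Jun gene with the steadiest expression, had relative signals of 22.2, 19.3 and 16.5 with BSA, 20.2, 23.2 and 21.7 with Rspo2, 23.2, 26.7 and 22.7 with Wnt3a and 24.0, 22.9 and 24.0 with both proteins. All Wnt3a arrays were above all BSA arrays. The rise with Wnt3a was 0.33 ± 0.11 on the log2 scale (adjusted p = 0.0449 in limma), and the difference with both proteins was 0.30 ± 0.11 (adjusted p = 0.0556). Quantile normalization reduced both differences to 0.03, without a call (adjusted p = 0.851 and 0.836). The call with Wnt3a was also lost with the slide as a block (0.22, adjusted p = 0.677 in limma) and in 10 of the 12 fits that left out 1 array. Normexp gave 0.39 for it, again without a call (adjusted p = 0.32). The difference with both proteins passed without BSA replicate 1 (0.40, adjusted p = 0.0181).

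*Junb*, which encodes a Jun protein known to restrain c-Jun, passed in none of the 5 comparisons with either probe. The 2 probes share 22 of their 60 bases. The brighter one had relative signals of 25.9, 27.6 and 24.1 with BSA, 30.5, 29.3 and 26.7 with Rspo2, 27.5, 28.1 and 17.5 with Wnt3a and 26.5, 25.7 and 26.2 with both proteins. Wnt3a replicate 3 was the lowest array on that probe and the highest Wnt3a array on the other, where the 3 values were 19.4, 21.9 and 23.8. With the slide as a block, which rests on that array, the brighter probe rose by 0.58 on the log2 scale from Wnt3a to both proteins (adjusted p = 0.041 in limma) and the other differed by -0.20 (adjusted p = 0.686).

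*Ier3*, a stress-induced gene with a part in cell survival, did not pass either. Its relative signal was 4.32, 4.82 and 4.55 with BSA, 5.31, 4.87 and 5.92 with Rspo2, 4.51, 6.01 and 6.36 with Wnt3a and 6.21, 5.32 and 4.42 with both proteins. All Rspo2 arrays were above all BSA arrays, which was the case for 2 of the 10 genes in that comparison in one direction or the other and for 43.5% of all probes. Its log2 differences from BSA were 0.23, 0.29 and 0.21 with Rspo2, Wnt3a and both proteins, and their standard error was 0.15. Without Wnt3a replicate 1, the lowest of that group, *Ier3* rose with Wnt3a by 0.44 (adjusted p = 0.04 in limma).

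Groups that did not overlap were counted for each comparison. There were 3 such genes between Wnt3a and BSA (45.5% of all probes), *Egr1*, *Egr2* and *Jund*, and 5 between both proteins and BSA (54% of all probes), these 3 with *Fosl2* and *Jun*. The groups with Wnt3a alone and with both proteins did not overlap for *Egr1*, *Egr2*, *Fosl2* and *Jun*, which is 4 of 10 genes where 21.4% of all probes did so. The order of the *Egr2* levels was BSA and Rspo2, which overlapped, then Wnt3a, then the combination. That of *Egr1* was Wnt3a and Rspo2, then BSA, then the combination, where the last 2 did not differ past the threshold.

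The genes around the members were taken from 6 lists of 90 genes in all, 78 of them detected. With both proteins 34 of the 78 passed the test against BSA, 21 upward and 13 downward, or 43.6% against 39.2% of all probes. With the slide as a block 6 of the 78 passed in that comparison, where 572 of all 22751 probes passed in place of 8916. The slide-blocked counts of the single lists below stand beside that loss over all probes. From Wnt3a to both proteins 16 passed, 8 in each direction, or 20.5% against 4.27% of all probes. In the interaction 13 passed, 5 upward and 8 downward, or 16.7% against 8.9% of all probes. With the slide as a block, 1 MAP kinase feedback gene rose and 1 AP-1 target gene fell from Wnt3a to both proteins. There 313 of all probes passed in place of 971. In the blocked interaction only 1 AP-1 target gene passed, upward, where 169 of all probes passed in place of 2024. The lists were chosen with earlier results of these data known and were not tested as sets.

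Of the 26 other immediate early genes detected, 9 rose and 8 fell with both proteins against BSA, with a median log2 difference of 0.15 against 0.04 for all probes. With the slide as a block 3 rose and none fell, and the median was -0.0095; under quantile normalization 7 rose and 8 fell, with a median of -0.0078. The matricellular genes *Cyr61* and *Ctgf* rose most, by 1.36 ± 0.08 and 1.34 ± 0.09 on the log2 scale (adjusted p = 9.24e-07 and 3.52e-06 in limma), and both had already risen with Wnt3a alone, by 0.96 and 0.88. Slide-blocked values with both proteins were 1.31 (adjusted p = 0.01) and 1.38 (adjusted p = 0.0199). The rises with Wnt3a alone lost their call for *Cyr61* with normexp (0.95, adjusted p = 0.0862 in limma) and for *Ctgf* with the slide as a block (0.86, adjusted p = 0.0858). In the interaction 1 gene of the list passed upward and 4 downward. None did with the slide as a block, where 169 of all 22751 probes passed in place of 2024.

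Of the 10 MAP kinase feedback genes detected, 4 rose and 1 fell with both proteins, and with the slide as a block 2 rose and none fell. *Spry1*, an inhibitor of receptor tyrosine kinase signaling, had intensities before scaling of 224.4, 287.7 and 206.3 with BSA and 846.4, 942.3 and 1017 with both proteins, and rose by 2.08 ± 0.10 on the log2 scale (adjusted p = 3.56e-07 in limma). It also rose by 0.72 with Rspo2 and by 1.28 with Wnt3a, where the first lost its call with the slide as a block (0.77, adjusted p = 0.0866 in limma) and both did with normexp (0.67, adjusted p = 0.523, and 0.83, adjusted p = 0.138). *Dusp4*, a phosphatase of nuclear MAP kinases, rose by 1.49 with both proteins (adjusted p = 2.39e-06), and the JNK and p38 phosphatase gene *Dusp16* fell by 1.03 (adjusted p = 0.00037). Slide-blocked values were 2.16 for *Spry1* (adjusted p = 0.0051), 1.23 for *Dusp4* (adjusted p = 0.0252) and -1.26 for *Dusp16* (adjusted p = 0.0768). With normexp *Dusp4* (1.11, adjusted p = 0.0661 in limma) and *Dusp16* (-0.87, adjusted p = 0.33) did not pass.

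Of the 17 detected genes known as AP-1 targets, 6 rose and 2 fell with both proteins, and with the slide as a block 1 rose and none fell. *Ccnd1*, which encodes cyclin D1 and is also known as a Wnt target, rose by 1.70 on the log2 scale (adjusted p = 2.16e-05 in limma), and the growth factor gene *Hbegf* by 1.12 (adjusted p = 2.1e-05). Slide-blocked, these were 1.25 (adjusted p = 0.127) and 1.25 (adjusted p = 0.0179). The cytokine gene *Il6* fell with each protein alone, by 0.78 with Rspo2 and 0.66 with Wnt3a, and differed from BSA by -0.21 with both (adjusted p = 0.105), so that its interaction was 1.24 (adjusted p = 0.000821 in limma). With normexp the interaction of *Il6* was 0.53 (adjusted p = 0.914) and its difference with Rspo2 -0.20 (adjusted p = 0.808), neither with a call, and the fall with Wnt3a was lost with normexp (-0.56, adjusted p = 0.42) and with the slide as a block (-0.84, adjusted p = 0.0716). The metallothionein gene *Mt1* and the osteopontin gene *Spp1* had interactions of -1.04 (adjusted p = 0.0234) and -1.06 (adjusted p = 0.00268), and neither passed with the slide as a block or with normexp.

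**Figure D4:**
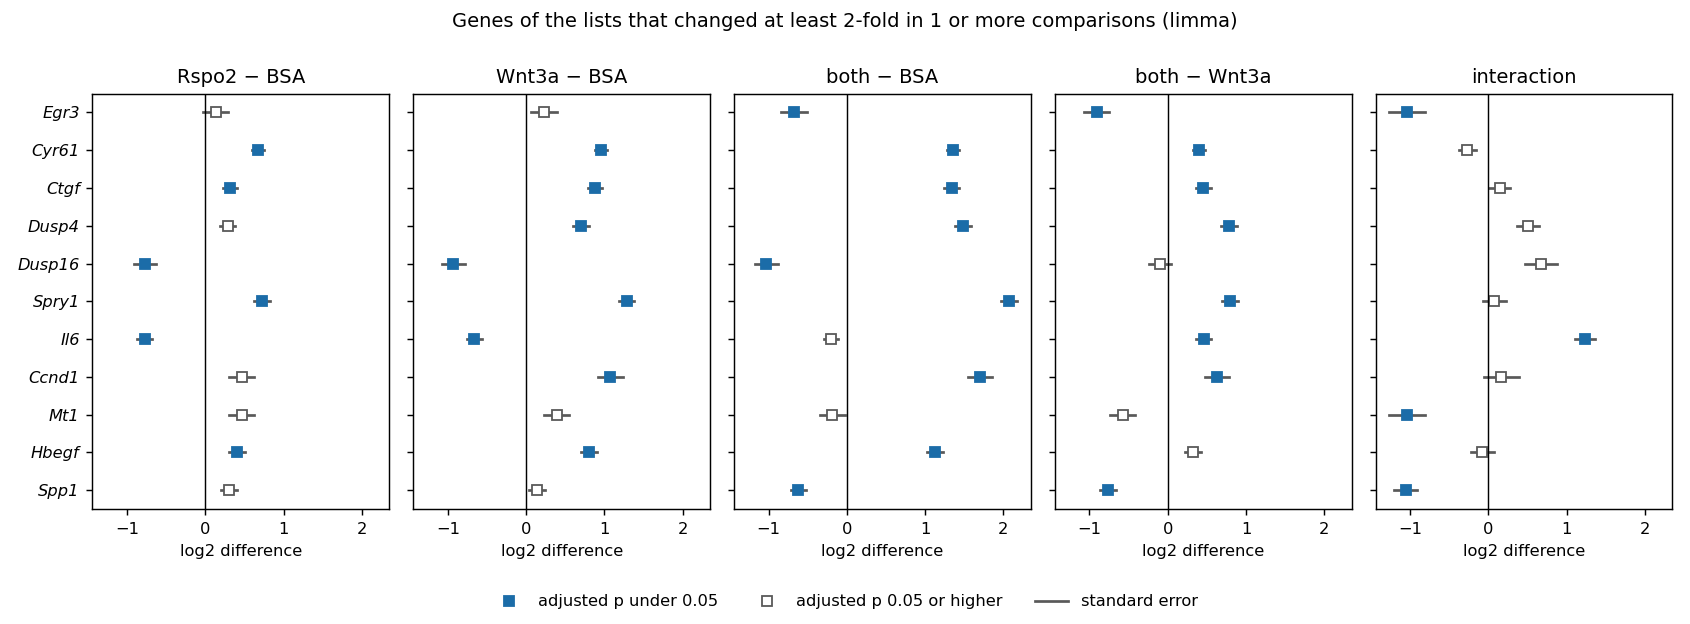
Log2 differences (x axis) with standard errors of 11 list genes that changed by at least 2-fold in 1 or more of the 5 comparisons (n = 3 arrays per group, limma); filled squares have an adjusted p under 0.05. *Spry1*, *Ccnd1*, *Dusp4*, *Cyr61*, *Ctgf* and *Hbegf* lie at 1.12 to 2.08 with both proteins against BSA, and *Egr3*, *Mt1* and *Spp1* lie near -1 in the interaction.

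The remaining lists moved less. Of the 9 other AP-1 partners detected, 1 rose and 1 fell with both proteins, and none passed with the slide as a block. Of the 14 detected genes for serum response factor, ternary complex factors and MAP kinases, 1 rose and none fell.

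The genes with the profile over the 12 arrays most like that of *Egr2*, among 13994 probes with a symbol above background on all arrays, were *Plin4*, *Cxcl12* and *Ppp1r14c* (Pearson r of 0.993 each). They were picked for this likeness to a gene that fell. Their own falls with both proteins against BSA, by 1.29 to 1.65 on the log2 scale, follow from that choice. For *Fosl2* the most similar genes were *Rnf214* (r = 0.966), *Slit2* (r = 0.965) and *Mcf2l* (r = 0.964), and for *Jund* they were *Srek1ip1* (r = 0.965), *Asnsd1* (r = 0.960) and *Ptp4a2* (r = 0.948). The arrays share slides and groups, so these values describe profiles and were not tested.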

How the data were processed

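Single-color Agilent arrays with probes of 60 bases were used. The deposited scanner files hold background-subtracted intensity per spot, which the authors made with Agilent Feature Extraction 9.5.3.1, and flags; the authors' table of ratio values on a linear scale (signal over the 75th percentile of the array) was an alternative. After 1327 of 520548 spot values flagged as uneven or outlying had been left out, the spots were averaged into 41174 probes, divided by the 75th percentile of their array and put on the log2 scale; the number of arrays limits the precision. A repeated probe counted as above background when 0.5 of its spots were.

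The comparisons between groups used limma 3.58.1 (R 4.3.3), with Benjamini-Hochberg adjustment over 22751 probes; an exact permutation test of 3 arrays against 3 cannot go below 0.1. Tables and plots used python 3.11.15, pandas 2.3.3, numpy 2.4.6, scipy 1.17.1 and matplotlib 3.10.9. The fit was tested on simulated data. A gene was read from its brightest detected probe. Every probe of the 10 genes was reported, and list genes were named when they changed by at least 2-fold in a comparison, except 1 that is counted but not reported here; a few that passed the test without that were named after their values were seen. For the 3 members with the largest difference with both proteins that were above background on all arrays, the 3 most similar genes were named. The members and lists were chosen with earlier results of these data known. The alternatives were other background corrections, scalings, filters and tests, blocks for slide and replicate, within-slide values and the leaving out of each array.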

Additional observations from a re-analysis of the deposited data

Results flagged for a closer look

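The change with Rspo2 differed between cells with and without Wnt3a for 2 members, by the interaction term of limma: *Egr1*, with an interaction of -0.97 on the log2 scale (adjusted p = 0.00195), and *Egr2*, with -1.40 (adjusted p = 0.000465). The same test passed for 4 of the named list genes: *Egr3* at -1.04, *Il6* at 1.24, *Mt1* at -1.04 and *Spp1* at -1.06. These 4 were named because of this test, so their passing is no separate result. Of all probes, 8.9% passed the interaction and 1.93% passed it with at least 2-fold. With the slide as a block the interactions of *Egr1* (-1.004, adjusted p = 0.0452), *Egr2* (-1.39, adjusted p = 0.0255) and *Il6* (1.24, adjusted p = 0.0238) passed, and those of *Egr3* (-0.81, adjusted p = 0.237), *Mt1* (-0.82, adjusted p = 0.235) and *Spp1* (-0.92, adjusted p = 0.0922) did not. With normexp background correction none of the 6 passed: *Egr1* was at -0.94 (adjusted p = 0.168 in limma), *Egr2* at -1.19 (adjusted p = 0.438), *Il6* at 0.53 (adjusted p = 0.914), *Egr3* at -1.06 (adjusted p = 0.914), *Mt1* at -0.82 (adjusted p = 0.866) and *Spp1* at -0.80 (adjusted p = 0.786). Of all 22751 probes, 3 passed the interaction with normexp.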

How the results depend on the processing

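The number of members changed by at least 2-fold was 0 with Rspo2, 0 with Wnt3a and 1 in each of the other comparisons. Without the 2-fold requirement these counts were 1, 3 and 3 against BSA, 2 against Wnt3a and 2 in the interaction. The 1 member against Wnt3a became 0 with normexp background correction, within slide 3 and with the methods' t-test after adjustment. The interaction gave 0 with normexp and 2 with the slide as a block, and 1 to 2 when single arrays were left out; *Egr1* was the second, without BSA replicate 1 or Rspo2 replicate 3. Of the list genes, 34 passed with both proteins against BSA and 6 with the slide as a block, where 8916 and 572 of all probes passed. Normexp moved the median of all probes from 0.01 to 0.15 with Rspo2, from 0.04 to -0.06 with both proteins against BSA and from -0.0031 to -0.16 in the interaction. Of the members that passed the test without regard to size, the 3 with Wnt3a became 0, and the 3 with both proteins against BSA became 1, under normexp, the slide block and the adjusted t-test. Over all 22751 probes, the 7161 calls with Wnt3a became 109, 181 and 1545 under these settings. The 8916 calls with both proteins against BSA became 1051, 572 and 3342. The 2 members against Wnt3a became 4 with the t-test without adjustment, where 2456 of all probes passed in place of 971. The fall of *Egr2* with both proteins passed in all 26 alternatives, from -1.87 to -1.39. The cause of these differences was not tested. No member reversed with a call on either side.

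The replicate numbers gave no sign of pairing the samples: deviations of same-numbered arrays correlated at a median of 0.013 (-0.413 to 0.271), and those of other arrays at -0.004. With 3 arrays per group these values cannot exclude that monolayers were handled in matched sets. With the replicate block, counts of members changed by at least 2-fold stayed at 0, 0, 1, 1 and 1, the rise of *Egr1* with Rspo2 kept its value of 0.34 (adjusted p = 0.0583 in limma) but not its call, as was so for *Jund* with Wnt3a (adjusted p = 0.0675) and *Jun* with both proteins (adjusted p = 0.0828), and over all probes 809 passed with Rspo2 in place of 3817. Signal over background limits *Fosb*.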
